A study of Homo sapiens with 8 samples.

Results

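The 31 genes described here are established transcriptional targets of p53, and they were found by symbol among the 57992 genes of the Molm13 count table and by the same identifier in the THP1 table. Bulk poly(A) RNA-seq had been performed in Molm13 and THP1 cells, human monocytic acute myeloid leukemia (AML) lines with fusions of MLL (KMT2A), labeled as wild-type in genotype. In each line, a control hairpin (shCtrl) or a hairpin targeting the arginine methyltransferase PRMT9 (shPRMT9) was induced with doxycycline (Dox), which all 4 groups received, and each group held 2 libraries, 8 in all. The time of induction is not given in the labels, and nothing says that the 2 libraries of a group came from separate cultures, so p-values measure the spread between these libraries, which may be technical. The names of the THP1 libraries also contain the letters OCI, which other leukemia lines carry, whereas their remaining labels give THP1. The shPRMT9 libraries 1 and 2 were treated as replicates, but the study uses the same numbers for different hairpins, and the labels do not say which is meant.

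p53 is a transcription factor that is held at a low level by the ubiquitin ligase MDM2 and its partner MDM4, and it accumulates after DNA damage and other stress. It binds pairs of decamers in DNA and induces genes that stop the cell cycle, repair DNA, alter metabolism and trigger or restrain cell death, among them MDM2 itself, which closes a feedback loop. Several of the 31 genes also respond to other regulators, so a change in their mRNA is not a readout of p53 alone.

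The labels could be compared with the targeted gene and with cell type markers. PRMT9 counts were 332 and 289 in the Molm13 shCtrl libraries and 41 and 56 after knockdown, and 317 and 352 against 60 and 68 in THP1. Its log2 fold change was -2.68 in Molm13 and -2.29 in THP1. Total counts ranged from 18720950 to 27356870 per library. Markers of B, T and erythroid cells summed to between 0.153 and 1.33 CPM (TMM-normalized counts scaled to a common library size) in every library, and myeloid markers to at least 1628 CPM. The summed myeloid markers were higher after knockdown in both lines, at 2312 and 2314 against 1628 and 1634 CPM in Molm13 and at 4117 and 3968 against 2719 and 2673 CPM in THP1. Single markers went both ways. At a false discovery rate (FDR) below 0.05, 7 of 8 tested rose and 1 fell in Molm13, where 33.4% and 33.5% of all genes did. In THP1, 6 of 9 rose and 3 fell, where 19% and 18.6% of all genes did. The part of these markers in the changes below was not tested. MEIS1, one of the MLL fusion program genes, was at 6.71 RPKM (CPM per kilobase of exon) in Molm13 shCtrl cells and 0.0191 in THP1 shCtrl cells, whereas HOXA9 was at 20.5 and 17.6 RPKM. The HOXB genes were searched because they separate lines with an MLL-AF9 fusion from lines with mutant NPM1. They summed to between 0.196 and 0.320 CPM in Molm13 and between 13.4 and 15.6 CPM in THP1. What these levels mean for the letters OCI in the THP1 library names was not tested.

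Promoter sequences are given first, since p53 acts on its targets through such stretches of DNA. RefSeq promoter windows (250 bases before to 50 bases after a start site, GRCh38.p14) were found for 26 of the 31 genes, 38 windows in all. The p53 consensus element was searched for as a pair of adjoining 10-base half-sites, which reads the same on both strands, with the invariant C and G of each half-site required and at most 3 other mismatches. It was present in 8 of the 38 windows, or 21.1%, and in 1.12% of all 35116 windows. The MDM2 windows that hold it overlap and carry the same site, counted once for each. By gene, it was held by 7 of the 26, or 26.9%, against 1.37% of all 27305 genes. These were MDM2, DDB2, AEN, SESN1, FDXR, RPS27L and GDF15. The list was chosen as p53 targets, so a higher share than over all genes is no separate result. A match is a description of letters and not evidence of binding.

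The upstream parts of 3 of these windows are shown as examples, since MDM2 and DDB2 rose and AEN fell by FDR in Molm13. Each sequence is on the + strand, ends at the base before the start site (DDB2 at the end of its match) and carries the matched element in capitals. The MDM2 start lies inside the gene and corresponds to its well-known internal p53-responsive promoter (chr12:68808767-68809016), the DDB2 match overlaps the start site (chr11:47214724-47214988), and the AEN match begins 34 bases before the start (chr15:88621090-88621339).
MDM2: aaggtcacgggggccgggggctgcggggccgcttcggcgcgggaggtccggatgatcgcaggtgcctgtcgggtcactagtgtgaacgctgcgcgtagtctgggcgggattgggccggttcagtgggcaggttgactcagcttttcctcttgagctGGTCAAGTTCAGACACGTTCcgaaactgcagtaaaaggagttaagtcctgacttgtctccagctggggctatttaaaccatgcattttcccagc
DDB2: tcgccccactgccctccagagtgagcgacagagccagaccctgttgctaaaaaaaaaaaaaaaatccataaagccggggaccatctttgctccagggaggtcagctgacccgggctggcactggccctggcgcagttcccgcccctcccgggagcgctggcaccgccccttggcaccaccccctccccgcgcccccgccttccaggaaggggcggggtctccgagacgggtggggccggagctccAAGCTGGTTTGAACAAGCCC
AEN: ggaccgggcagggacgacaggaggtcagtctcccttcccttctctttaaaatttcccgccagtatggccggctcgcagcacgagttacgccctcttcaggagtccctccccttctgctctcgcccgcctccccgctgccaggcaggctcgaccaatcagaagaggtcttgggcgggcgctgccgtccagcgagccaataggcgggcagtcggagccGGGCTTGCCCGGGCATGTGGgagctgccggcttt

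The 4 remaining matches had 3 mismatches each, against 2 in MDM2 and AEN and 1 in DDB2. Of their genes, SESN1, FDXR and RPS27L also rose by FDR in Molm13, whereas GDF15 did not pass. The matches are shown as the 20 matched bases, with capitals for bases that fit the consensus and lower case for those that do not.
SESN1: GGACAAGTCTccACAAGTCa
FDXR: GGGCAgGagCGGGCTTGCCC
RPS27L: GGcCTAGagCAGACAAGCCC
GDF15: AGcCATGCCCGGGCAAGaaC

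CDKN1A and BTG2 are shown because they were called upward in both lines. No match was found in their single windows, which says only that these letters are not in that stretch, and the known p53 elements of CDKN1A lie farther upstream. Capitals mark GC boxes, searched as GGGCGG or its reverse complement CCGCCC with overlapping matches counted, which 45.0% of all windows hold. The upstream part of the CDKN1A window (chr6:36678464-36678713) has 4 and that of BTG2 (chr1:203305269-203305518) has 3, both on the + strand.
CDKN1A: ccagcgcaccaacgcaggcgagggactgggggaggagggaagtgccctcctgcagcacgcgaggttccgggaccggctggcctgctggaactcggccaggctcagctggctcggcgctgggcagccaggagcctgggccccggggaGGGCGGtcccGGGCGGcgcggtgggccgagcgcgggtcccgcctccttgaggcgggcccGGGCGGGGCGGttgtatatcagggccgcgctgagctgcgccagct
BTG2: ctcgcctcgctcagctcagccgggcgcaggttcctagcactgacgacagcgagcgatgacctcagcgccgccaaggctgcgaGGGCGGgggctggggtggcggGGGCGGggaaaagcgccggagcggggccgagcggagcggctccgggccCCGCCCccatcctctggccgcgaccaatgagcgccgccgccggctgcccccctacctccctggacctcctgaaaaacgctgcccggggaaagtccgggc

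Before any knockdown, the level of the p53 targets differed widely between the lines. RPKM values were computed with one normalization over all 8 libraries, although the lines were deposited in separate tables, so line and handling cannot be told apart. Of the 30 targets with enough counts in the joint fit, both Molm13 shCtrl libraries were above both THP1 shCtrl libraries for 26, and the reverse held for 4. Over all 19288 genes, these shares were 46.3% and 44.3%. The median log2 ratio of Molm13 over THP1 was 1.05 for the targets and 0.02 for all genes, after adding 0.1 RPKM.

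CDKN1A, which encodes the cyclin-dependent kinase inhibitor p21, had the highest level of the list in Molm13 shCtrl cells, 86.5 RPKM, and was at 1.95 RPKM in THP1, a ratio of 44.3. CCNG1 followed at 85.1 RPKM in Molm13 and had the highest level in THP1, 44.8 RPKM. PHLDA3, which encodes an inhibitor of AKT, was at 6.0 against 0.0829 RPKM, with 5 and 9 counts in the THP1 shCtrl libraries. TP53INP1, a stress-induced nuclear protein, was at 3.96 against 0.342 RPKM. MDM2 was at 25.5 against 6.51 RPKM and BTG2 at 14.9 against 3.43 RPKM. The plot of control levels shows the narrow spread of the libraries beside these gaps.

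**Figure D1:**
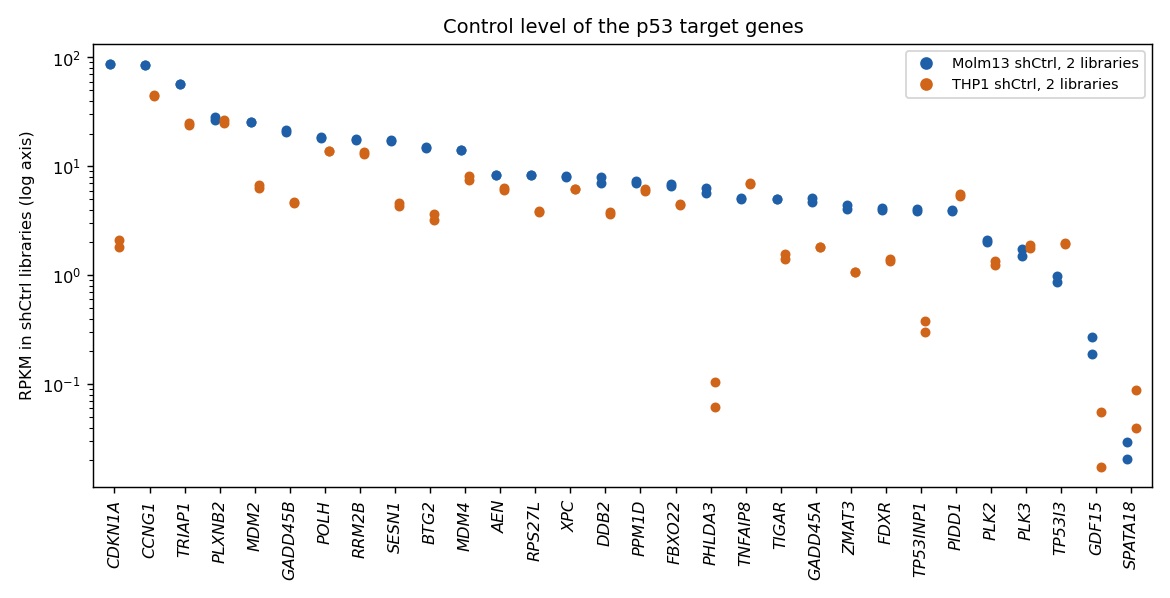
RPKM (log axis) of p53 target genes in the 2 shCtrl libraries of Molm13 (blue) and of THP1 (orange), 1 point per library, with EDA2R left out because 1 THP1 library had no count. CDKN1A lies at 86.5 RPKM in Molm13 and 1.95 in THP1, whereas PLXNB2 lies at 27.4 and 25.9.

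Other targets differed little between the lines. PLXNB2, a receptor for class 4 semaphorins, was at 27.4 ± 1.07 RPKM in Molm13 and 25.9 ± 0.959 in THP1 (SD, n = 2 each). PLK3 was at 1.62 and 1.83 RPKM. The genes that were higher in THP1 were TP53I3 (1.96 against 0.931 RPKM), TNFAIP8 (6.94 against 5.08), PIDD1 (5.47 against 3.95) and PLK3. SPATA18 was close to undetected, with at most 12 counts in any library, and was tested in neither line nor in the joint fit.

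After PRMT9 knockdown, the p53 targets moved in both directions in Molm13. Of the 30 that passed the filter on low counts, 6 rose and 4 fell under the study's rule for differential expression (FDR below 0.05, a fold change above 1.5 in either direction and at least 1 library above 1 RPKM). These are 20% and 13.3% of the targets tested, whereas 11.4% and 11.3% of all 16446 genes were called in these directions. By FDR alone, 16 rose and 9 fell, where 33.4% and 33.5% of all genes did so, or 66.9% in either direction. The groups did not overlap for 29 of the 30, as for 81.9% of all genes. The median log2 fold change was 0.14 for the targets and 0.00047 for all genes.

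In THP1, 27 targets passed the filter, and GDF15, PHLDA3, EDA2R and SPATA18 did not. Of these 27, 2 rose and 1 fell under the full rule, or 7.41% and 3.70%, against 3.83% and 2.39% of all 16294 genes (6.22% in either direction). By FDR alone, 5 rose and 8 fell, where 19% and 18.6% of all genes did. The groups did not overlap for 19 of the 27, as for 66% of all genes, and the median log2 fold change was -0.07 against -0.00064 for all genes.

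**Figure D2:**
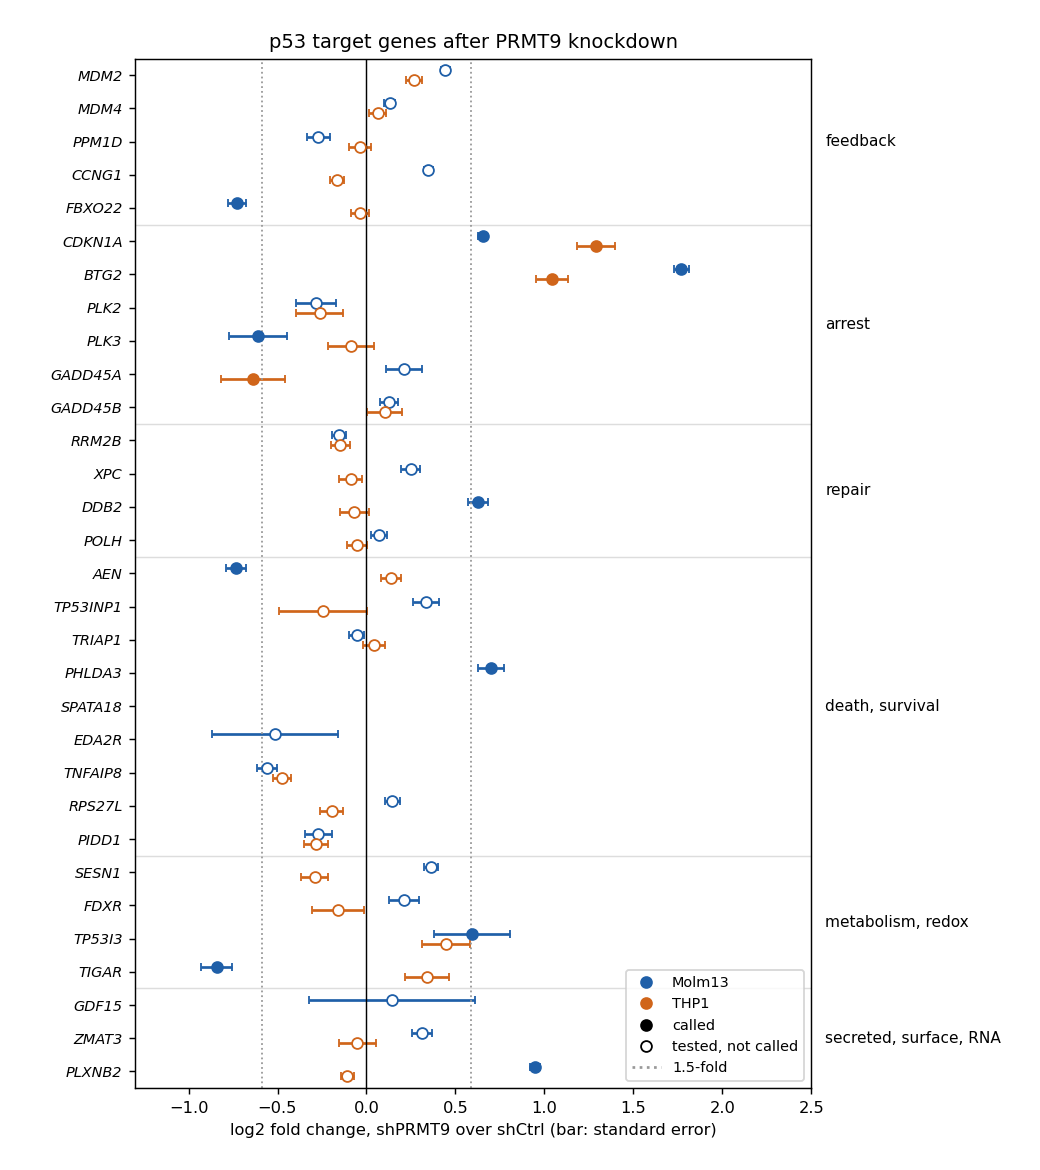
log2 fold change of shPRMT9 over shCtrl for each p53 target gene in Molm13 (blue) and THP1 (orange), grouped by role, with bars for the standard error, filled points for genes called under the full rule and dotted lines at 1.5-fold. CDKN1A and BTG2 are the genes called in both lines, at 0.65 and 1.77 in Molm13 and 1.29 and 1.04 in THP1, and most other points lie between the dotted lines.

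Among the inhibitors and feedback genes, MDM2 rose by FDR in both lines but stayed below 1.5-fold. Its level was 336 and 340 CPM in the Molm13 shCtrl libraries and 457 and 462 after knockdown. In THP1 it was 89.0 and 83.5 CPM against 106 and 102. The knockdown libraries were above the controls in both lines, by log2 fold changes of 0.44 ± 0.025 (standard error, adjusted p = 8.0e-20) and 0.27 ± 0.044 (adjusted p = 1.6e-05, the quasi-likelihood test of edgeR, adjusted by Benjamini-Hochberg over all genes, as for all fold changes here). Exons of MDM2 share 439 bases with a processed pseudogene and 785 with an antisense gene in GENCODE release 29, and the strand setting of the counting is not given in the sources used here.

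The other feedback genes moved in both directions. MDM4 rose slightly in Molm13, by 0.13, and was at 0.06 in THP1 (adjusted p = 0.32). CCNG1, a cyclin that works with a phosphatase on MDM2, rose by 0.35 in Molm13 and fell by 0.17 in THP1. PPM1D, the phosphatase that removes phosphates from p53 and from its kinases, fell by 0.27 in Molm13, and without shPRMT9 replicate 1 this was -0.16 (adjusted p = 0.077). FBXO22, the substrate-binding part of a ubiquitin ligase, was at 78.8 and 81.6 CPM in Molm13 shCtrl libraries and 45.9 and 50.7 after knockdown, a fall of 0.73 ± 0.049 (adjusted p = 2.1e-17). In THP1, the FBXO22 groups overlapped, and the log2 fold change was -0.04. FBXO22 shares 16.2% of its exon bases with NRG4 on the opposite strand.

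The genes of cell cycle arrest held the largest rise of the list in each line, BTG2 in Molm13 and CDKN1A in THP1. CDKN1A (ENSG00000124762; chr6:36676460-36687339, + strand) was at 262 and 265 CPM in Molm13 shCtrl and 417 and 412 after knockdown. In THP1 it was at 6.44 and 5.46 CPM against 14.4 and 14.6. Both knockdown libraries were thus above both controls in each line, but the THP1 level after knockdown remained far below the Molm13 control. The log2 fold change was 0.65 ± 0.026 in Molm13 (adjusted p = 2.5e-25) and 1.29 ± 0.11 in THP1 (adjusted p = 8.8e-11). Its exons overlap by 146 bases those of an antisense transcript, DINOL.

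BTG2 (ENSG00000159388; chr1:203305491-203309602, + strand), an antiproliferative adaptor of the deadenylase complex, rose in both lines. It was at 40.4 and 42.0 CPM in the Molm13 shCtrl libraries and 142 and 138 after knockdown, a log2 fold change of 1.77 ± 0.043 (adjusted p = 4.2e-33). In THP1 it was at 8.93 and 9.92 CPM against 19.9 and 18.9, a log2 fold change of 1.04 ± 0.090 (adjusted p = 1.9e-10). BTG2 and CDKN1A passed the full rule upward in both lines, and so did 2.06% of the 13476 genes tested in both.

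The remaining arrest genes had smaller rises, falls or no call. GADD45A, a stress-induced protein that binds cell cycle and kinase partners, was at 10.7 and 9.75 CPM in Molm13 shCtrl and 11.6 and 12.0 after knockdown, a log2 fold change of 0.21 that missed the limit (adjusted p = 0.061), and it passed it without shCtrl replicate 1 (0.27, adjusted p = 0.047). In THP1, GADD45A was at 3.78 and 3.74 CPM against 2.62 and 2.21 and fell by 0.64 ± 0.18 (adjusted p = 0.0060). Without THP1 shPRMT9 replicate 2 this was -0.52 (adjusted p = 0.060), below the 1.5-fold limit. GADD45B rose by 0.13 in Molm13 (adjusted p = 0.031), a call that was lost in 3 of the 4 fits that left out 1 library, namely shCtrl replicate 1, shCtrl replicate 2 and shPRMT9 replicate 2 (0.11 to 0.14). It was at 0.10 in THP1 (adjusted p = 0.46).

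Both polo-like kinases of the list pointed downward in Molm13. PLK3 was at 6.07 and 5.21 CPM in Molm13 shCtrl and 3.31 and 4.04 after knockdown and fell by 0.61 ± 0.16 (adjusted p = 0.0010). Its fold change dropped below 1.5 without shCtrl replicate 1 (-0.50) or shPRMT9 replicate 1 (-0.47). In THP1 the PLK3 groups overlapped. PLK2 fell by 0.28 in Molm13 (adjusted p = 0.024) and missed the limit without shCtrl replicate 2, shPRMT9 replicate 1 or shPRMT9 replicate 2, with -0.24 to -0.31. PLK2 was at -0.26 in THP1 (adjusted p = 0.12).

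**Figure D3:**
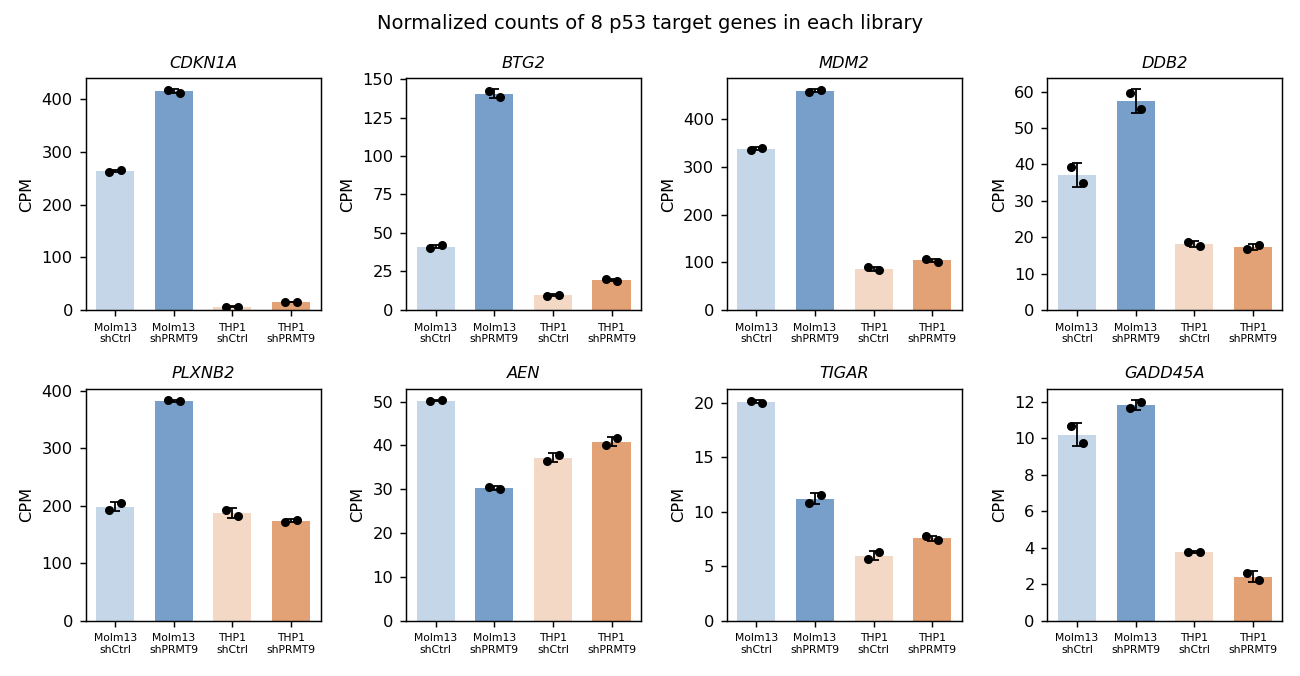
Normalized counts (CPM) of 8 p53 target genes, with bars for the mean of 2 libraries, error bars for the SD and points for each library, and shCtrl in the paler shade. Mean BTG2 rises in both lines, to 140 CPM from 41.2 in Molm13 and to 19.4 from 9.43 in THP1, whereas mean TIGAR falls to 11.2 from 20.1 CPM in Molm13 and rises to 7.57 from 5.97 in THP1.

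Among the DNA repair genes, DDB2 rose in Molm13. DDB2 (ENSG00000134574; chr11:47214465-47239240, + strand) and XPC recognize damaged bases in nucleotide excision repair. DDB2 was at 39.4 and 34.8 CPM in Molm13 shCtrl and 59.7 and 55.2 after knockdown, a log2 fold change of 0.63 ± 0.057 (adjusted p = 3.6e-13). It fell under the 1.5-fold limit without shCtrl replicate 2 (0.54) or shPRMT9 replicate 1 (0.58). In THP1, DDB2 was at 18.6 and 17.6 CPM against 16.7 and 17.9, so that the groups overlapped.

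The other repair genes changed little. XPC rose by 0.25 in Molm13 and was at -0.09 in THP1 (adjusted p = 0.32), and 23.8% of its exon bases overlap an antisense gene. RRM2B, the stress-induced subunit of ribonucleotide reductase, fell by 0.16 in Molm13 and by 0.15 in THP1. The fall in THP1 (adjusted p = 0.031) was lost without shCtrl replicate 1 (-0.12) or shPRMT9 replicate 2 (-0.05). POLH, the translesion polymerase, did not pass in either line (adjusted p = 0.18 and 0.48).

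The genes of cell death and survival were split. PHLDA3 was at 17.9 and 19.8 CPM in Molm13 shCtrl and 29.4 and 31.7 after knockdown and rose by 0.70 ± 0.073 (adjusted p = 1.5e-11), although 19.1% of its exon bases overlap a noncoding gene on the same strand. TP53INP1 rose by 0.33 and RPS27L, a ribosomal protein paralog induced by p53, by 0.14 in Molm13. Reads of RPS27L may be shared with its close paralog RPS27, so its value is uncertain.

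Other genes of this group fell. AEN (ENSG00000181026; chr15:88621296-88632282, + strand), an exonuclease that enhances apoptosis, was at 50.1 and 50.3 CPM in Molm13 shCtrl and 30.5 and 29.9 after knockdown and fell by 0.73 ± 0.057 (adjusted p = 2.3e-15). In THP1, AEN was at 36.4 and 37.8 CPM against 40.2 and 41.6 and did not pass (adjusted p = 0.065). TNFAIP8, which protects from apoptosis, fell by 0.56 in Molm13 and 0.48 in THP1, close to the 1.5-fold limit in Molm13, and it passed that limit without shCtrl replicate 1 (-0.59) or shPRMT9 replicate 2 (-0.60). PIDD1, the scaffold that activates caspase-2, fell by 0.27 and by 0.28. RPS27L fell by 0.20 in THP1, a call lost without shCtrl replicate 1 (-0.17) or shPRMT9 replicate 2 (-0.13).

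The last members of the group were not called. TRIAP1, a small inhibitor of apoptosis, was at -0.06 in Molm13 and 0.04 in THP1. TRIAP1, CCNG1 and POLH each have a processed pseudogene in the annotation that could share reads with them. EDA2R, a receptor of the TNF receptor family, had 19 and 24 counts against 14 and 16 in Molm13 (adjusted p = 0.20) and at most 1 count in THP1.

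Among the metabolic and redox genes, TIGAR, a bisphosphatase that lowers glycolytic flux, fell most in Molm13. TIGAR was at 20.2 and 20 CPM in the shCtrl libraries and 10.8 and 11.5 after knockdown, a fall of 0.84 ± 0.086 (adjusted p = 1.1e-11). In THP1 it was at 5.66 and 6.29 CPM against 7.74 and 7.40 and rose by 0.34 (adjusted p = 0.029), which was lost without shCtrl replicate 1 (0.26) or shPRMT9 replicate 1 (0.31). Since 42.6% of its exon bases lie in another annotated gene on the same strand, its counts are uncertain.

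TP53I3, a quinone oxidoreductase, had 41 and 45 counts in Molm13 shCtrl and 54 and 76 after knockdown, and its log2 fold change of 0.59 ± 0.21 (adjusted p = 0.013) lay just inside the 1.5-fold limit. It lost the call without shCtrl replicate 1 (0.49, adjusted p = 0.081) or shPRMT9 replicate 2 (0.43, adjusted p = 0.20). In THP1, TP53I3 rose by 0.45 (adjusted p = 0.0096). SESN1, a stress-induced inhibitor of mTORC1 signaling, rose by 0.36 in Molm13 and fell by 0.29 in THP1. FDXR, the mitochondrial ferredoxin reductase, rose by 0.21 in Molm13 (adjusted p = 0.027), but not without shCtrl replicate 1 (0.17) or shPRMT9 replicate 1 (0.19), and was at -0.16 in THP1 (adjusted p = 0.42).

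The remaining genes encode a receptor, an RNA-binding protein and a cytokine. PLXNB2 (ENSG00000196576; chr22:50274979-50307627, - strand) was at 193 and 204 CPM in Molm13 shCtrl and 384 and 382 after knockdown, a rise of 0.95 ± 0.028 (adjusted p = 6.3e-30). In THP1 it was at 193 and 182 CPM against 172 and 176 and fell by 0.11 (adjusted p = 0.021), a call that was lost without shCtrl replicate 1 (-0.07) or shPRMT9 replicate 1 (-0.09). ZMAT3, an RNA-binding regulator of splicing, rose by 0.31 in Molm13 and was at -0.05 in THP1. GDF15, a secreted stress cytokine, had 8 to 11 counts in the Molm13 libraries and 1 to 4 in THP1, too few to detect a small change.

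Several targets differed in their response between the lines. The difference itself was tested over all 8 libraries, as the log2 fold change in THP1 minus that in Molm13. Of 30 targets tested, 17 passed, with 6 higher in THP1 and 11 higher in Molm13, or 20% and 36.7%, where 22.8% and 19.4% of all 19288 genes passed in these directions and 42.2% in either. The median difference was -0.12 for the targets and 0.03 for all genes.

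The targets with a higher value in Molm13 were led by PLXNB2, whose difference was -1.04 ± 0.046 (adjusted p = 1.4e-36). GADD45A (-0.84), BTG2 (-0.72), DDB2 (-0.68) and SESN1 (-0.64) followed, then TP53INP1 (-0.57), CCNG1 (-0.50), ZMAT3 (-0.35), RPS27L (-0.33), XPC (-0.32) and MDM2 (-0.16). The difference of TP53INP1 rested on few counts in THP1 and was lost in 4 of 8 fits that left out 1 library, those without Molm13 shCtrl replicate 1, Molm13 shPRMT9 replicate 2, THP1 shCtrl replicate 2 or THP1 shPRMT9 replicate 2 (highest adjusted p = 0.27). That of ZMAT3 was lost without THP1 shPRMT9 replicate 2 (-0.27, adjusted p = 0.086).

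The targets with a higher value in THP1 were TIGAR (1.19 ± 0.15, adjusted p = 7.7e-11), AEN (0.88), FBXO22 (0.71), CDKN1A (0.65), PLK3 (0.54) and PPM1D (0.25). CDKN1A differs from the others in having risen in both lines, so that its difference is one of size. The difference of PLK3 was lost in 4 of 8 fits that left out 1 library (0.37 to 0.66), those without Molm13 shCtrl replicate 1, Molm13 shPRMT9 replicate 1, THP1 shCtrl replicate 1 or THP1 shPRMT9 replicate 2. That of PPM1D was lost in 7 of 8 (0.11 to 0.33), all but the one without Molm13 shPRMT9 replicate 2.

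**Figure D4:**
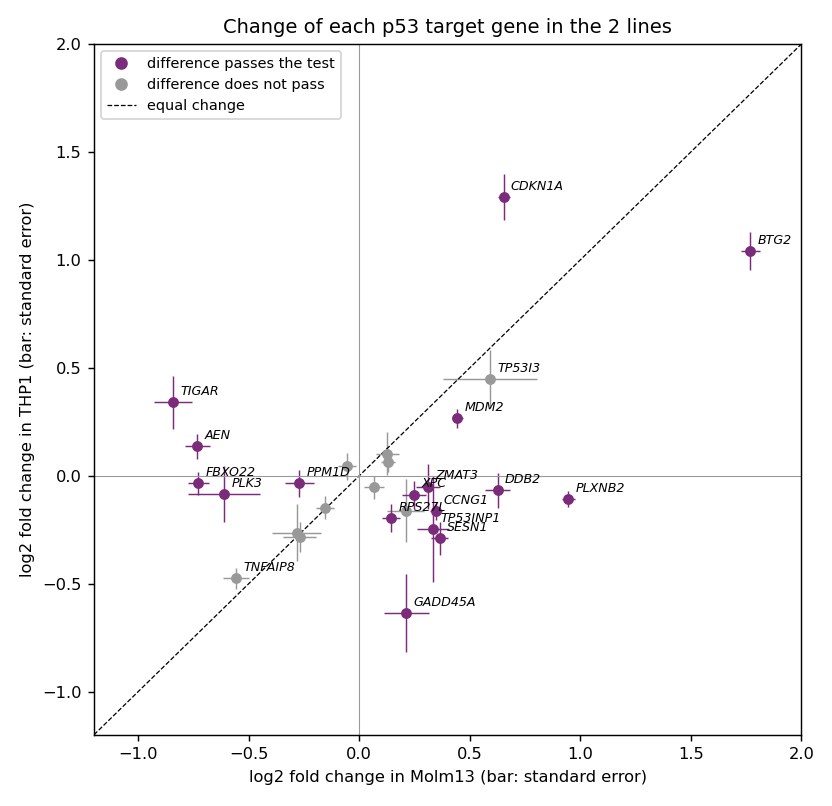
log2 fold change in Molm13 (x axis) against THP1 (y axis) for the 27 p53 targets tested in both lines, with bars for standard errors, purple for differences that passed the test and a dashed line for equal change. PLXNB2 lies at 0.95 and -0.11 and TIGAR at -0.84 and 0.34, far from the dashed line, whereas TP53I3 and TNFAIP8 lie near it.

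The calls by FDR in the 2 lines can also be set side by side for the 27 targets tested in both. MDM2, CDKN1A, BTG2 and TP53I3 rose in both lines, 4 of these 27, where 11.5% of all 13476 genes tested in both did so. RRM2B, TNFAIP8 and PIDD1 fell in both, as did 10.8% of all genes. SESN1, CCNG1, RPS27L and PLXNB2 rose in Molm13 and fell in THP1, as did 5.8% of all genes, and TIGAR fell in Molm13 and rose in THP1, as did 5.51%.

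The genes that control p53 activity were measured in the same fits. CDKN2A, which encodes the MDM2 inhibitor ARF among its products, had 0 counts in all 8 libraries and was picked out after its values were seen. Of a list of 25 regulators and kinases of p53, 23 were tested in Molm13, where 3 fell by the full rule (11.3% of all genes) and 10 rose and 7 fell by FDR alone (33.4% and 33.5% of all genes). In THP1, 24 were tested, of which 1 rose and 1 fell by the full rule (3.83% and 2.39% of all genes) and 7 rose and 6 fell by FDR alone (19% and 18.6%). Their median log2 fold changes were 0.06 and 0.04.

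The regulators that fell by the full rule in Molm13 were ATR (-1.05) and CHEK1 (-1.1), kinases of the replication checkpoint, and TP73 (-1.03), a relative of p53. By FDR, ATR rose (0.28) and CHEK1 fell (-0.31) in THP1. TP73 also fell in THP1, from 193 and 291 counts to 112 and 114, a log2 fold change of -1.0 ± 0.14 (adjusted p = 2.1e-06). HIPK2, a kinase that phosphorylates p53, rose by 0.92 in THP1.

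A second list of 30 p53 targets was counted in the same way. In Molm13, 5 of 24 tested rose and 3 fell by the full rule, with a median of 0.19, where 11.4% and 11.3% of all genes were called. In THP1, 1 of 24 rose, with a median of 0.11, where 3.83% of all genes rose. By FDR alone, 13 rose and 8 fell in Molm13 (33.4% and 33.5% of all genes), and 11 rose in THP1 (19% of all genes). The gene with the smallest adjusted p in Molm13 was PCNA, the DNA polymerase clamp, which fell by 1.05. TNFRSF10D, a decoy receptor for the death ligand TRAIL (0.83), TP53I11 (0.87) and CMBL (1.25) also rose. The gene called in THP1 was TRIM22 (2.00 ± 0.047), which interferon induces as well as p53.

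Genes that p21 represses through the DREAM complex encode the machinery of DNA replication and mitosis. All 20 of this list were tested in both lines. In Molm13, 14 fell by the full rule and 19 by FDR alone, where 11.3% and 33.5% of all genes did, and the median was -0.74. In THP1, 0 passed the full rule with edgeR and 0 with DESeq2, while 1 rose and 13 fell by FDR alone and 1 rose and 13 fell at an unadjusted p below 0.05, and the median was -0.17. Of all genes in THP1, 2.39% fell by the full rule and 18.6% by FDR alone. MKI67 (-0.97), MYBL2 (-1.34), CCNA2 (-1.13), TOP2A (-0.72) and BUB1 (-0.97) had the smallest adjusted p in Molm13. The difference between the lines passed for 19 of the 20, higher in THP1 for all 19, with a median of 0.64, where 22.8% of all genes passed in this direction.

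Lists of other responses that touch some p53 targets were counted by the full rule, which called 11.4% of all genes upward and 11.3% downward in Molm13 and 3.83% and 2.39% in THP1. Of 14 targets of ATF4, the factor of the amino acid response, 2 rose and 6 fell by the full rule in Molm13 (median -0.37), with DDIT4 at 1.37 and PSAT1 at -1.58, and 1 of 13 rose and 1 fell in THP1 (median 0.21). Of the immediate early genes, 5 of 13 rose and 1 fell in Molm13 (median 0.58) and 2 of 12 rose in THP1 (median 0.20). Of the NF-kB targets, 7 of 14 rose in Molm13 and 10 of 15 in THP1 (medians 1.39 and 2.00). Of 18 interferon-stimulated genes, 16 rose in Molm13 and 18 in THP1 (medians 3.11 and 2.54). The part of these responses in the changes of the p53 targets was not tested.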

How the data were processed

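RNA was isolated with Trizol, and poly(A) libraries were made with a Kapa mRNA HyperPrep kit and sequenced on an Illumina HiSeq instrument. The submitters' processing notes name TopHat2 2.0.8, HTSeq 0.11.2 and edgeR 3.30.3 and the build hg38. The annotation release and strand setting of the counting are not given in the sources used here. The authors deposited raw counts of reads for each gene, unnormalized whole numbers, as 1 table per line. Symbols, coordinates and exon lengths came from the Molm13 table and were matched to THP1 by identifier.

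Each line was fitted alone with edgeR 4.0.16 in R 4.3.3 (TMM normalization, filterByExpr, quasi-likelihood test, Benjamini-Hochberg adjustment over all genes tested). CPM used TMM-scaled library sizes. The difference between the lines was an interaction term over all 8 libraries. DESeq2 1.42.0, other normalizations and filters, the replicate number as a block, other limits of the call, a common fit and leaving out each library were alternatives. The scripts were tested on simulated data. Every one of the 31 targets is accounted for, PRMT9 is named, and of each other list at most 5 called genes per line with the smallest FDR, except that some genes so selected are left out here. The members and lists were chosen with earlier results of these data known. Overlaps with other genes were read from GENCODE release 29. No column of another series' sample was present in the tables.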

Additional observations from a re-analysis of the deposited data

Results flagged for a closer look

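The response to PRMT9 knockdown differed between Molm13 and THP1 for 17 of 30 p53 targets tested, where 42.2% of all 19288 genes passed. This was edgeR's test of the difference itself, given as the log2 fold change in THP1 minus that in Molm13. The value was 1.19 for TIGAR, 0.88 for AEN, 0.71 for FBXO22, 0.65 for CDKN1A, 0.54 for PLK3 and 0.25 for PPM1D. It was -1.04 for PLXNB2, -0.84 for GADD45A, -0.72 for BTG2, -0.68 for DDB2, -0.64 for SESN1, -0.57 for TP53INP1, -0.50 for CCNG1, -0.35 for ZMAT3, -0.33 for RPS27L, -0.32 for XPC and -0.16 for MDM2. Line and handling cannot be told apart, since each line has its own table and library series. The control levels of these genes differ as well, with CDKN1A at 86.5 RPKM in Molm13 and 1.95 in THP1, and the part of this in the differences was not tested. When 1 library was left out, the difference ranged from 0.11 to 0.33 for PPM1D, 0.37 to 0.66 for PLK3 and -0.86 to -0.39 for TP53INP1.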

How the results depend on the processing

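In Molm13, 10 p53 targets (6 up, 4 down) became 25 (16 up, 9 down) by FDR alone and 1 (1 up, 0 down) with a fold change above 2. In THP1, 3 targets (2 up, 1 down) became 13 (5 up, 8 down) by FDR alone, and GADD45A was lost with a fold change above 2 and with DESeq2, which left 0 down. The 17 differences between the lines became 9 (5 higher in Molm13) when a difference above 1.5-fold was also asked for. Leaving out 1 library gave 8 to 10 called targets in Molm13 (5 up, 3 to 5 down), 2 to 3 in THP1 (2 up, 0 to 1 down) and 14 to 16 differences, with 4 to 6 higher in THP1 and 10 to 12 higher in Molm13. The median of the targets ranged from 0.14 to 0.18 in Molm13 and from -0.066 to -0.018 in THP1 in these fits, and was 0.13 in Molm13 without a count filter and -0.10 in THP1 with library size alone. PRMT9 ranged from -2.81 to -2.55 in Molm13 and from -2.39 to -2.19 in THP1. Values that missed the test in the first place changed sign as follows when 1 library was left out, with ranges of -0.10 to 0.42 for GDF15 in Molm13, and in THP1 of -0.0012 to 0.13 for MDM4, -0.0070 to 0.087 for TRIAP1, -0.20 to 0.019 for PLK3 and -0.18 to 0.063 for ZMAT3. The difference between the lines did so for RRM2B (-0.11 to 0.080, and -0.0047 with RLE size factors, -0.024 with library size alone and -0.0050 with DESeq2), PLK2 (-0.058 to 0.056, and -0.013 with library size alone), PIDD1 (-0.13 to 0.060) and EDA2R (-2.48 to 0.52). Their cause was not tested.

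The deviations of libraries with the same replicate number correlated at -0.087 across genes in Molm13 and -0.015 in THP1, which gave no sign of pairing. Counting noise of single genes could hide a weak pairing, so these values cannot exclude that libraries were prepared in pairs. With the replicate number as a block, 9 targets were called in Molm13 (TP53I3 lost), 3 in THP1, and 16 differences (TP53INP1 lost). TP53I3 was also lost in Molm13 without a count filter and with DESeq2. With 2 libraries per group, small counts such as those of GDF15 and EDA2R set the limit.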

Other observations

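Summed over the 31 p53 targets, Molm13 held 2162 and 2190 CPM in the shCtrl libraries and 2807 and 2822 after knockdown, and THP1 held 1057 and 1045 against 1028 and 1012. The arrest genes made up 375 and 376 CPM in Molm13 shCtrl and 631 and 625 after knockdown, and 41.3 and 41.9 against 58.6 and 57.8 in THP1. The death and survival genes went the other way, at 321 and 324 against 301 and 308 CPM in Molm13 and at 211 and 206 against 185 and 183 in THP1. No test was made of these sums, which weigh the most abundant genes most.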
